A study of Mus musculus with 22 samples.

Results

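Imprinted growth genes are expressed mainly from 1 parental allele and, in development, act on growth of the fetus, on placental supply and on stem cell upkeep. The set described here has 9 members: Mest, Peg3, Plagl1, Grb10, Dlk1, Igf2, H19, Ndn and Meg3. They are 9 of the 24411 gene rows in each of 2 deposited expression tables, matched by gene symbol, and all 9 were found in both tables. The members were chosen by their normalized counts in both contrasts, which were in view when the set was drawn up. Their levels and fold changes are therefore a description, with no test.

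The cells were primary neural stem cells from the adult mouse hippocampus, grown as a layer on PDL and laminin with EGF and bFGF at 10 ng/ml each, seeded at 10000 cells per well. The study asked how the loss of O-GlcNAc, a sugar that the enzyme OGT places on nuclear and cytoplasmic proteins, alters these cells. In the knockdown, cells received lentivirus for 3 days at 10 viral particles per cell, carrying either an shRNA to Ogt (ShOgt, 5 libraries) or one labelled ShLuc (6 libraries). In the second experiment, cells were kept for 24 h in 12.5 µM of the OGT inhibitor OSMI-1 (12p5uM_OSMI, 5 libraries), or in an equal volume of DMSO (Vehicle_OSMI, 6 libraries). All 4 groups were in growth medium, which does not by itself settle the state of the cells. The labels do not say whether libraries of a group are separate animals or cultures, so p-values measure the spread between these 22 libraries, which may be technical. Each experiment has its own table with its own scaling, and every comparison stays within a table.

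At imprinted loci, DNA methylation laid down in the egg or the sperm survives the reprogramming of the early embryo and silences 1 parental copy. KRAB zinc finger proteins such as ZFP57, with their partner TRIM28, and the maintenance methyltransferase DNMT1, guided by UHRF1, keep these marks through cell division. Paternally expressed members include the growth factor gene Igf2, the membrane protein gene Dlk1 and Mest, Peg3, Plagl1 and Ndn. H19 and Meg3 are maternally expressed noncoding RNAs, and Grb10 is maternal in most tissues but paternal in neurons. In adult neural stem cells some imprinted genes are known to depart from single-allele expression. The deposited values do not separate the 2 alleles, so they hold nothing on imprinting itself.

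In the GENCODE M21 annotation of GRCm38, Mest lies on chromosome 6 from 30723547 to 30748465 on the plus strand. Peg3 lies on chromosome 7 from 6703892 to 6730431 on the minus strand, and Ndn on the same chromosome from 62346569 to 62350262. Igf2 and H19 neighbour each other there, at 142650766 to 142666816 and 142575529 to 142578143. Dlk1 and Meg3 share a domain on chromosome 12, at 109452823 to 109463336 and 109541001 to 109571726. Plagl1 is on chromosome 10 from 13060504 to 13131694 and Grb10 on chromosome 11 from 11930508 to 12038683. H19 and Meg3 are annotated as long noncoding RNAs and the other 7 as protein coding. In Mest, 912 exon bases overlap exons of Copg2 on the opposite strand. Reads there cannot be told apart unless strand was used, and the sources differ on whether the library kit kept strand.

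Promoter windows from RefSeq, on GRCm38.p6, run from 250 bases before to 50 after a gene's start and were given for 8 of 9 members. The 3 below belong to the 3 members with the highest levels per exon length, and capitals mark each CG, the dinucleotide that imprint methylation sits on. Mest has 3 windows, with 8, 17 and 17 of them. The one shown, at chr6:30737800-30738099 on the plus strand, holds 17 and nearly coincides with the third, while the one with 8 lies upstream. The Peg3 window, at chr7:6730370-6730669 on the minus strand, holds 13, and the Ndn window, at chr7:62348027-62348326 on the plus strand, 11. The median over all 32544 windows is 7.
Mest: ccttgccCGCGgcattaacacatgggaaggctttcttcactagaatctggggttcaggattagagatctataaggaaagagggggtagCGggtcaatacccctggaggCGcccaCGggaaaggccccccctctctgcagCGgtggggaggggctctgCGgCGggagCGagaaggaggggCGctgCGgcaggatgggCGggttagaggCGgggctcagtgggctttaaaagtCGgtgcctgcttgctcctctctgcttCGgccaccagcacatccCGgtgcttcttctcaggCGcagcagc
Peg3: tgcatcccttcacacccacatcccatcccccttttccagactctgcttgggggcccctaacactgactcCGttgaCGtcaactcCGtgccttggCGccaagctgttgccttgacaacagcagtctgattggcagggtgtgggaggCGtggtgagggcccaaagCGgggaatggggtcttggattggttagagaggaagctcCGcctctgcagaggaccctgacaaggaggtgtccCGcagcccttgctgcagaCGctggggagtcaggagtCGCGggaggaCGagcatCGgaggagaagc
Ndn: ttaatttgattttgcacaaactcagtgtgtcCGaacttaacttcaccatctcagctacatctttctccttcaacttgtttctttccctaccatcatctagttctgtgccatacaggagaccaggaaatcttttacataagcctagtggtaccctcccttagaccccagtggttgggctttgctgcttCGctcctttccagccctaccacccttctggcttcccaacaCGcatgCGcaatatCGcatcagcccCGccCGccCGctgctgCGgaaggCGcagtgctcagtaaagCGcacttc

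Letter patterns were searched on both strands of the 15 member windows: GGGGCCCC, bound by PLAGL1, itself a member, and GCCATNTT, bound by YY1. They do not overlap each other in letters. The first was found in 1 window, that of Peg3, upstream of the start, and 1.07% of all windows hold it. The second was in none of the 15 windows, against 6.08% of all windows. A match is only a match of letters in this window, and the same holds for a missing one.

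Mest is also the host of the microRNA gene Mir335, which lies outside its exons on the same strand. The 2 mature products are shown because they arise from the Mest transcription unit, and neither was measured here. Capitals mark the seed, bases 2 to 8. RefSeq places the first at chr6:30741314-30741336 and the second at chr6:30741354-30741375.
miR-335-5p: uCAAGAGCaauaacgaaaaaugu
miR-335-3p: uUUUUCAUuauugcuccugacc

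The libraries held 7224180 to 13222262 reads in the knockdown and 4522610 to 12778845 in the inhibitor experiment. Ogt, the targeted gene, was at 737 to 1004 normalized counts in ShLuc and 349 to 524 in ShOgt (log2 fold change -0.98 ± 0.11, SE, limma adjusted p = 1.1e-06), and it was higher after OSMI-1 (404 to 506 against 563 to 658, limma adjusted p = 0.0010). The libraries labelled ShLuc 3 and ShOgt 3 stood apart from the rest: 399 and 219 of 1125 olfactory receptor rows held a read in them, against 19 to 130 in the other knockdown libraries and 8 to 19 in the inhibitor experiment. On principal components, ShLuc 1 and Vehicle_OSMI 1 also stood apart on the second, and 12p5uM_OSMI 5 on the third. Of the neural stem cell markers, Nes, Fabp7, Slc1a3 and Sox9 were abundant, while Hes5 and Msi1 were near 0. Microglial markers summed to at most 21.5 normalized counts in any library, and Cx3cr1 and C1qa were at 0 in the knockdown table. Summed over 8 genes, oligodendrocyte lineage markers were at 17774 to 20743 in ShLuc and 10014 to 11543 in ShOgt. The 10 neural stem cell markers summed to 22598 to 27245 with vehicle and 17616 to 19292 with OSMI-1. Neuron markers summed to 3955 to 4663 in ShLuc and 3432 to 3821 in ShOgt, and ependymal and choroid plexus markers to 119 to 191 with vehicle and 51.3 to 99.3 with OSMI-1. In every other marker list, and for these 4 in the other experiment, the sums overlapped between groups. Single genes did not all follow their sum. Among neuron markers in the knockdown, Map2 and Calb2 passed the limma test as lower. Tubb3 (235 in ShLuc and 397 in ShOgt) and Syt1 (46.4 and 261) passed as higher. Among stem cell markers with OSMI-1, Vim, Fabp7, Slc1a3 and Pax6 passed as lower and Sox9 as higher. Most of the oligodendrocyte lineage sum was Olig1, at a mean of 18601 in ShLuc and 10257 in ShOgt. The part of these shifts in the results below was not tested. In such bulk libraries, fewer cells of a type and less RNA per cell cannot be told apart.

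Levels can be compared between genes only per length. Per kilobase of exon, Mest was the highest member in all 4 groups, at 777 ± 67.0 normalized counts per kb in ShLuc (SD, n = 6), above 95.2% of the 17485 genes with a read and a length. Ndn followed at 305 ± 22.7 per kb and Peg3 at 81.5 ± 8.29 per kb. Plagl1 was far lower, at 3.65 ± 1.44 per kb. The ranges of these 4 did not overlap their neighbours in the ShLuc order. Grb10, Dlk1, Meg3, H19 and Igf2 came to 0.579 ± 0.417, 0.277 ± 0.257, 0.169 ± 0.315, 0.0534 ± 0.131 and 0.0459 ± 0.112 per kb, and neighbours among these 5 overlapped throughout. In vehicle the order of the first 4 was the same, with Mest at 948 ± 65.8, Ndn at 166 ± 19.04, Peg3 at 104 ± 10.4 and Plagl1 at 2.38 ± 1.05 per kb (n = 6).

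**Figure D1:**
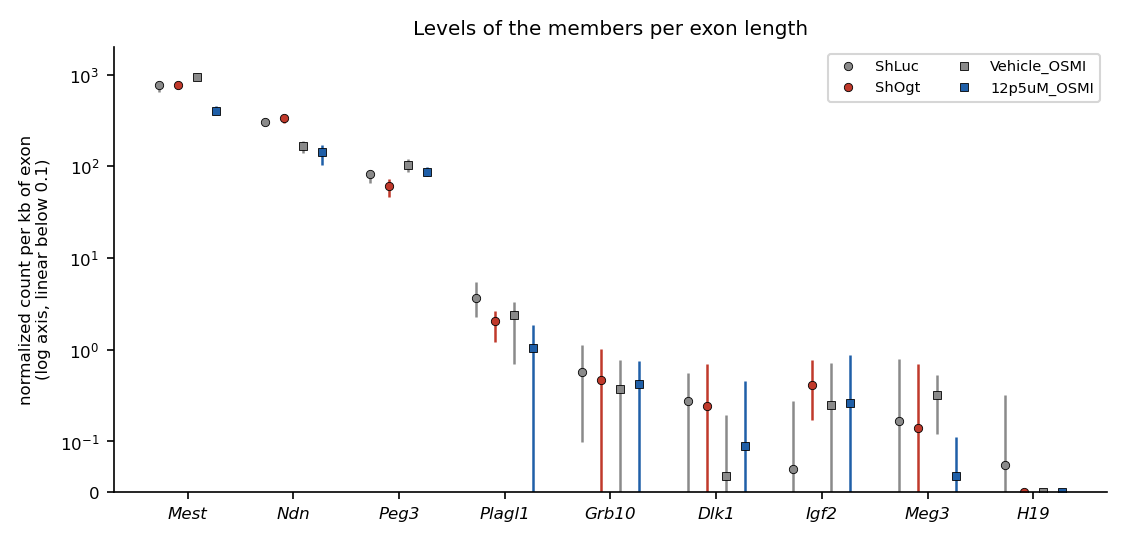
Normalized count per kilobase of exon for the 9 members on a log axis that is linear below 0.1. Symbols are group means and lines run from the lowest to the highest library; Mest, Ndn and Peg3 lie above 46 per kb in every library, and the other 6 stay below 5.5.

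Of the 9 members, 4 passed the filter on low counts in each experiment: Mest, Peg3, Ndn and Plagl1. The other 5 had too few reads in both. In the knockdown, 1 of the 4 was past the threshold of the all-gene limma fit, Peg3, in the lower direction. Over all 12136 genes tested there, 31.8% passed, 15.4% as higher and 16.4% as lower, and in 18.8% the groups did not overlap. In the inhibitor experiment 2 of the 4 were past it, Mest and Peg3, both lower. There 24.8% of 11349 genes passed, 11.6% as higher and 13.2% as lower, and 14% had groups that did not overlap. Nothing is read from the members' counts, since the contrasts chose them. The median log2 fold change of the 4 was -0.22 in the knockdown and -0.73 with OSMI-1. For the same reason these medians are not set against all genes.

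Mest encodes a membrane protein of the hydrolase fold and is among the classic paternally expressed genes of mesoderm and brain. In ShLuc its lowest, median and highest values were 2571, 3124 and 3287 normalized counts. The ShOgt libraries 1, 2, 3, 5 and 6 gave 3023, 2871, 3183, 3198 and 2769.6. All 5 fell inside the ShLuc range, and the log2 fold change was -0.02 ± 0.07 (SE). With vehicle the lowest, median and highest values were 3434, 3770.2 and 4094. The OSMI-1 libraries 1, 2, 4, 5 and 6 gave 1813, 1634, 1521, 1503 and 1529. Every OSMI-1 library lay below every vehicle library, with a wide gap. The means were 3741 ± 260 and 1600.0 ± 129 (SD, n = 6 and 5), so OSMI-1 libraries held 42.8% of the vehicle mean (log2 fold change -1.23 ± 0.07). Leaving out any 1 library kept the value between -1.27 and -1.20. Mest thus lay below its control range after 24 h of inhibitor and inside it after 3 days of knockdown. Agents and times differ between the experiments, and the difference between them was not tested for the members.

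**Figure D2:**
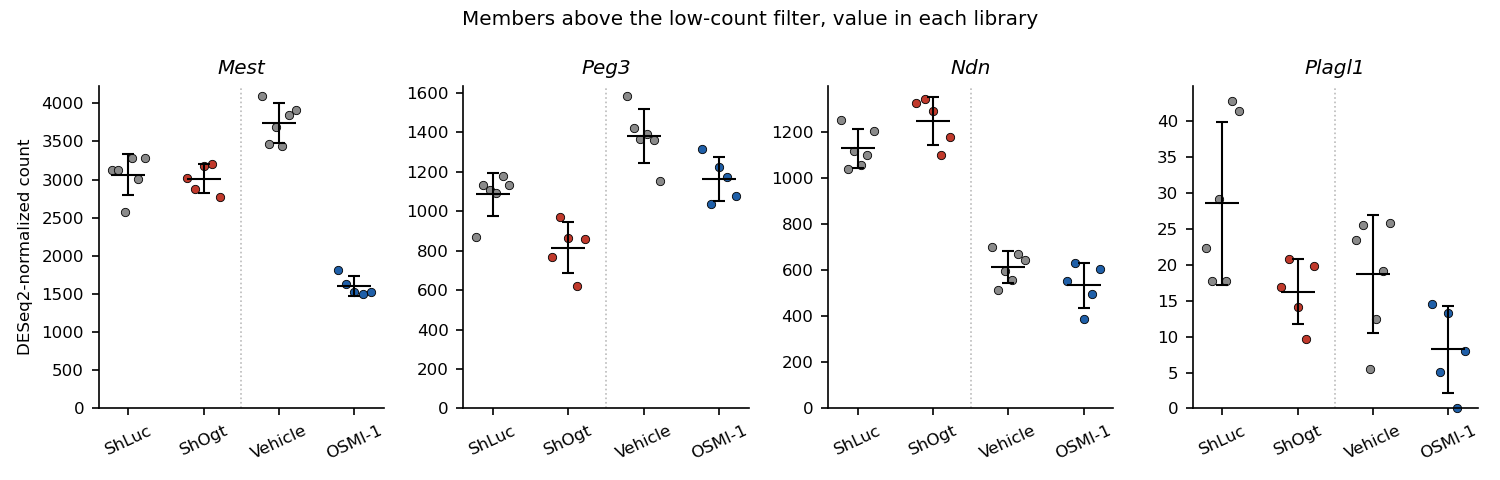
Normalized count of the 4 members above the filter in each library, knockdown at left and inhibitor at right of the dotted line in each panel. Points are libraries, bars the mean and SD; the 5 OSMI-1 points of Mest, 1503 to 1813, lie apart from the vehicle points, 3434 to 4094, while all other pairs of groups overlap.

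Copg2, a coat protein gene that overlaps the 3′ end of Mest and is maternally expressed in some tissues, is the one measured neighbour of Mest. Copg2 was at 158 ± 46.8 normalized counts in ShLuc and 109 ± 6.72 in ShOgt (log2 fold change -0.49 ± 0.19, limma adjusted p = 0.057), and without ShLuc 4 or ShLuc 6 it passed (limma adjusted p = 0.031 and 0.025). With OSMI-1 it was at 114 ± 12.3 against 104 ± 22.2 in vehicle (0.16 ± 0.15, limma adjusted p = 0.49). The 2 fold changes differed from each other (difference 0.64 ± 0.24, normal test, adjusted p = 0.034).

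Peg3 encodes a zinc finger protein of the nucleus, tied to growth, feeding and maternal behaviour in mice. In ShLuc the lowest, median and highest values were 868, 1121 and 1177 normalized counts, the lowest being ShLuc 1. The ShOgt libraries 1, 2, 3, 5 and 6 gave 767, 969.7, 865, 620.0 and 858. All 5 were below the ShLuc mean, and only ShLuc 1 fell among them. The means were 1086 ± 110.4 and 816 ± 131 (log2 fold change -0.42 ± 0.11). In vehicle the lowest, median and highest values were 1155, 1379 and 1587, and the OSMI-1 libraries 1, 2, 4, 5 and 6 gave 1317, 1038, 1222, 1173 and 1079. Again all 5 were below the control mean, with overlap, and the means were 1381 ± 138 and 1166 ± 112 (-0.24 ± 0.08). Without Vehicle_OSMI 1, 2 or 4 or 12p5uM_OSMI 2 or 6, or without both libraries that stood apart, Peg3 no longer passed the threshold there. Of its neighbours, Usp29 and Zim1 did not pass the filter.

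The 3′UTRs of Mest, Peg3, Ndn and Plagl1 do not hold AACATGC, a 7-base sequence looked for with earlier results of these data known. It is in 17.1% of the 1913 genes with a 3′UTR that fell in the knockdown, in 5.83% of 1768 that rose and in 9.48% of 7682 that did not pass. Over all 11363 genes with a 3′UTR that passed the filter there, 10.2% hold it. Of 26 such other imprinted genes 2 hold it (7.69%), Copg2 and Snrpn. None of the 4 other imprinted genes that fell there, Peg12, Commd1, Tssc4 and Nnat, holds it. Among the members below the filter, Igf2 holds it, in 4 of 5 transcripts. Its part in the result was not tested.

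Plagl1 encodes a zinc finger transcription factor that restrains growth and acts on other imprinted genes. It was a low gene here, at 17.7, 25.8 and 42.7 normalized counts as lowest, median and highest in ShLuc. The ShOgt libraries 1, 2, 3, 5 and 6 gave 16.9, 20.7, 14.1, 9.60 and 19.8, with overlap at the low end. Its log2 fold change was -0.73 ± 0.36. In vehicle the values ran from 5.44 through a median of 21.3 to 25.9, and the OSMI-1 libraries gave 14.6, 5.07, 13.3, 0 and 8.02. These overlapped too, and the fold change of -1.43 ± 0.58 is the least precise of the 4. It came from 102 reads with vehicle and 59 with OSMI-1, and without a single library it ran from -1.74 to -0.75. The value nearest 0 was that without 12p5uM_OSMI 5, the library with no read of Plagl1. As a ratio of means, Plagl1 with OSMI-1 was at 44.0% of vehicle.

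Ndn encodes necdin, a MAGE family protein of the Prader-Willi region that restrains proliferation in neural cells. Its lowest, median and highest values in ShLuc were 1038, 1108 and 1252 normalized counts. ShOgt libraries 1, 2, 3, 5 and 6 stood at 1326, 1341, 1289, 1098 and 1178. ShOgt 1, 2 and 3 lay above every ShLuc library and the others inside the range, for a log2 fold change of 0.14 ± 0.08. In vehicle the values ran from 516 through 621 to 703, and with OSMI-1 they were 555, 633, 386, 496 and 605 (-0.21 ± 0.11). The low value of 386 was library 4, the deepest. Neither fold change passed the threshold, and none did without any 1 library.

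The neighbours of Ndn in this region did not move as a block. Of 8 listed neighbours 6 passed the filter: Peg12, Mkrn3, Snrpn, Snurf, Ube3a and Atp10a. Peg12, of the FRAT family of GSK3-binding proteins, fell from 1691 ± 70.5 to 816 ± 47.1 normalized counts after knockdown (log2 fold change -1.05 ± 0.07, limma adjusted p = 2.3e-09, lower in 5 of 5 libraries). Mkrn3, a ubiquitin ligase gene known for its part in puberty timing, rose from 119.9 ± 30.4 to 194 ± 44.5 (0.70 ± 0.19, limma adjusted p = 0.0083, higher in 5 of 5). Snrpn, a splicing factor gene, was at 849 ± 87.9 and 950.5 ± 75.7 (limma adjusted p = 0.17). With OSMI-1, Peg12 fell from 806 ± 123 to 617 ± 75.7 (-0.38 ± 0.10, limma adjusted p = 0.0059) and Snrpn rose from 373 ± 33.5 to 465 ± 29.6 (0.32 ± 0.09, limma adjusted p = 0.0098), while Mkrn3 was at 41.7 ± 15.1 and 33.5 ± 9.20 (limma adjusted p = 0.47). Ube3a, the maternally expressed ubiquitin ligase of Angelman syndrome, Atp10a and Snurf passed in neither experiment, with limma adjusted p from 0.27 to 0.79. Snurf lies within exons of Snrpn, so how reads were split between them is uncertain.

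**Figure D3:**
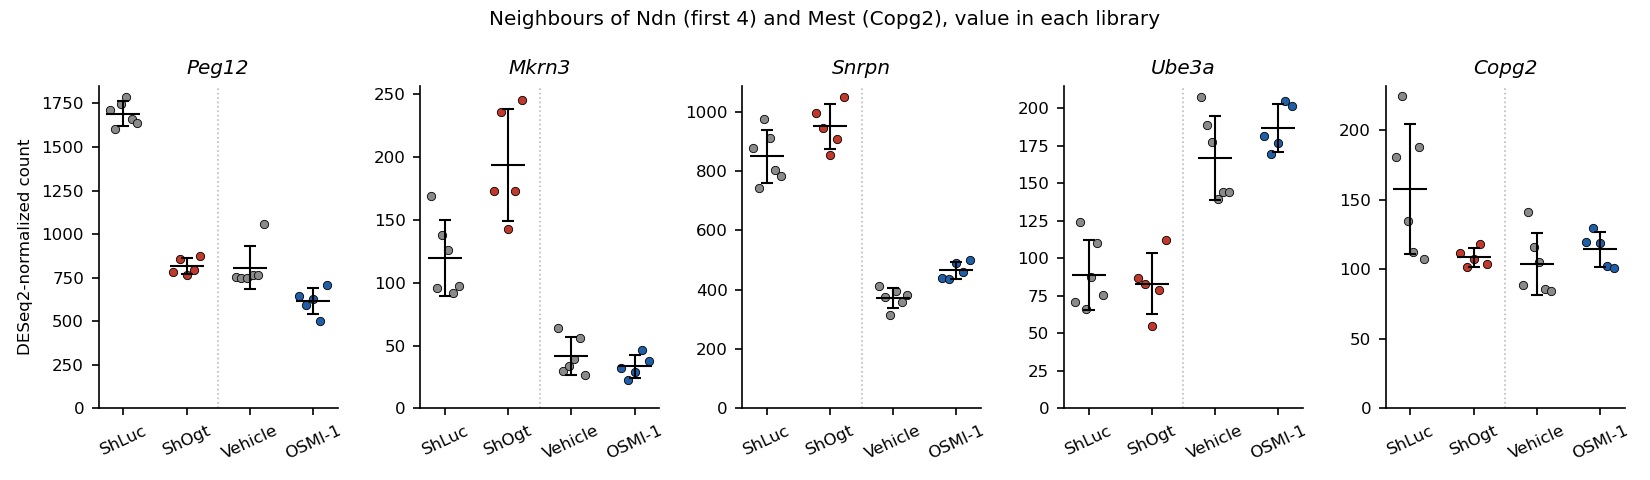
Normalized count of 4 neighbours of Ndn and of Copg2, the neighbour of Mest, in each library. Points are libraries, bars the mean and SD; Peg12 is lower in both treated groups without overlap, Mkrn3 has a higher mean in ShOgt with overlap, and Snrpn is higher with OSMI-1 without overlap.

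The growth factor branch was almost silent. Igf2, the fetal growth factor that signals through IGF1R and is cleared by IGF2R, had 2 reads in the 6 ShLuc libraries, both in ShLuc 3. It had 11 reads in ShOgt, with 5, 1, 3, 1 and 1 in libraries 1, 2, 3, 5 and 6. This is 0.0299 and 0.233 CPM, and the ratio of the normalized sums is 7.49 with a 95% counting interval of 1.63 to 69.6. With vehicle and OSMI-1 it had 8 and 7 reads, in 5 of 6 and 2 of 5 libraries. Igf2 thus had a read in each ShOgt library and in 1 of 6 ShLuc libraries, at a depth where 3 reads are the limit of a group. Intervals cover counting error only. Since the contrasts chose the members, they are no test of a difference. Igf2 shares 3596 exon bases with Gm49394 on the same strand, so reads there are uncertain.

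Grb10 encodes an adaptor that damps insulin and IGF receptor signalling. It had 35 reads in ShLuc and 21 in ShOgt, and 19 with vehicle and 28 with OSMI-1, and its normalized counts ran from 0 to 10.2 over all 22 libraries. The counting intervals of the 2 ratios were 0.452 to 1.44 and 0.718 to 2.53. Dlk1, a membrane protein related to NOTCH ligands that keeps progenitors undifferentiated and is known from the adult neural stem cell niche, had 10 and 7 reads in the knockdown. In the inhibitor experiment it had 1 read with vehicle and 6 with OSMI-1, all 6 in library 4, the deepest. The counting intervals of its 2 ratios were 0.308 to 2.77 in the knockdown and 0.658 to 250 with OSMI-1. These intervals leave out the spread between libraries, and nothing is read from Grb10 or Dlk1 at this depth.

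Of 14 partners in the IGF pathway, 11 passed the filter in the knockdown, where 2 rose and 1 fell (median log2 fold change -0.12). Over all genes tested there, 15.4% rose and 16.4% fell. This list, too, was drawn up with earlier results of these data known. Igf1r, the receptor that IGF2 acts through, rose from 526 ± 41.1 to 937 ± 77.6 normalized counts (0.83 ± 0.09, limma adjusted p = 8.0e-07). Irs1, a docking protein of that receptor, rose from 719 ± 74.5 to 1031 ± 165 (0.51 ± 0.11, limma adjusted p = 0.0010), and Igfbp4, a secreted IGF binding protein, fell from 6861 ± 656 to 5742 ± 202 (-0.25 ± 0.07, limma adjusted p = 0.0073). With OSMI-1, 10 passed the filter, 2 rose and 1 fell (median -0.01), beside 11.6% and 13.2% of all genes. Igf1r rose there as well, from 325 ± 34.6 to 474 ± 48.5 (0.54 ± 0.10, limma adjusted p = 0.00024), and Irs2 rose from 181 ± 24.4 to 250.2 ± 38.2 (0.46 ± 0.13, limma adjusted p = 0.0086). Igf2bp2, which encodes an RNA-binding protein that binds Igf2 mRNA, fell from 32.7 ± 11.4 to 17.6 ± 2.94 (-0.81 ± 0.28, limma adjusted p = 0.039). That call was lost without any one of Vehicle_OSMI 2, 5 or 6 or 12p5uM_OSMI 1, 2 or 4. Igf2r, the maternally expressed receptor that clears IGF2, was at 778 ± 90.9 and 841 ± 78.9 in the knockdown (limma adjusted p = 0.39). It rose with OSMI-1 from 426 ± 38.1 to 529 ± 78.7 (0.30 ± 0.10, limma adjusted p = 0.028, higher in 4 of 5), and no longer passed without Vehicle_OSMI 1 or 12p5uM_OSMI 1, 4 or 5. Cdkn1c, an imprinted cell cycle inhibitor, averaged 0.131 normalized counts in ShLuc and was at 0 in the other groups.

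The noncoding members were near 0 as well. H19, which hosts a microRNA and restrains growth, had 1 read in all 22 libraries, in ShLuc 3. Meg3, the maternal noncoding RNA of the Dlk1 domain, had 22 reads in ShLuc, 18 of them in ShLuc 3 and 4 in ShLuc 4, and 9 in ShOgt, all in ShOgt 3. The knockdown reads of Meg3 and of H19, and both ShLuc reads of Igf2, were thus found mainly in the libraries with many olfactory receptor rows; whether these share a source was not tested. In the inhibitor experiment Meg3 was at 8.17, 5.56, 2.18, 3.82, 9.55 and 5.88 normalized counts in Vehicle_OSMI 1 to 6. The OSMI-1 libraries gave 0.911 and 2.03 in libraries 1 and 2 and 0 in libraries 4, 5 and 6. After scaling, every OSMI-1 library lay below every vehicle library, but Vehicle_OSMI 3 and 12p5uM_OSMI 2 each held 2 reads. Over the groups the reads were 32 against 3, and vehicle was 11.8 times OSMI-1 with a counting interval of 3.69 to 60.2. The deepest library of the table, 12p5uM_OSMI 4, was among those with none. Meg3 was below the filter, so this is a difference between sparse counts. The interval leaves out the spread between libraries and is no test, since the contrasts chose the members. Of its neighbours, Rtl1, Rian, Mirg and Dio3 averaged below 0.19 normalized counts in every group.

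**Figure D4:**
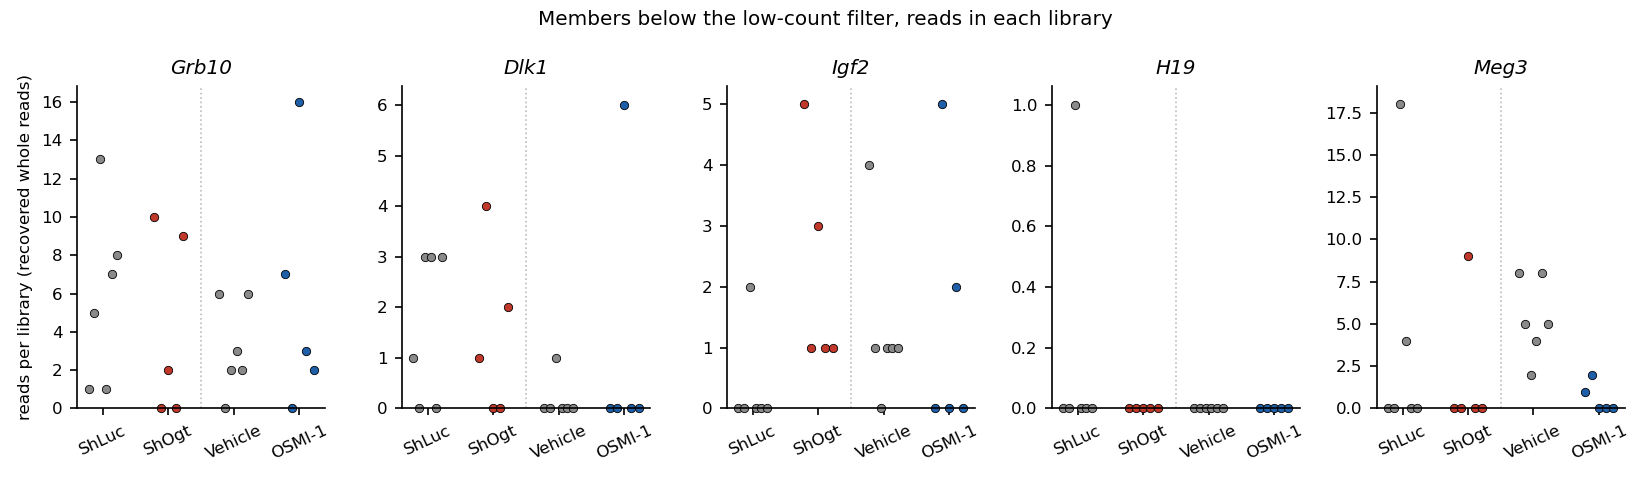
Whole reads per library for the 5 members below the filter, which cover 0 to 18 reads. Points are libraries; Meg3 with vehicle has 2 to 8 reads in 6 of 6 libraries, and with OSMI-1 2 reads at most.

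The wider set of 54 other imprinted genes gives the members' setting. They were named by imprinting and not by how they moved, though with earlier results of these data known. In the knockdown 30 passed the filter, 3 rose, 4 fell and 23 did not pass the test, with a median log2 fold change of 0.02. Without ShLuc 1, ShLuc 3 and ShOgt 3, 7 rose and 4 fell. With OSMI-1, 28 passed the filter, 10 rose, 3 fell and 15 did not pass, with a median of 0.19 beside 0.00 over all genes. Of these 28, 22 had positive and 6 negative fold changes with OSMI-1. The directions of the members are not set against these, since the contrasts chose the members. By allele, 3 of 17 tested paternally expressed others rose and 2 fell in the knockdown, and none of 11 maternally expressed ones rose and 2 fell, beside 15.4% higher and 16.4% lower over all genes. With OSMI-1, 4 of 16 paternally expressed others rose and 3 fell, and 6 of 11 maternally expressed ones rose and none fell, beside 11.6% and 13.2% of all genes. The alleles are those listed for each gene. They can differ between tissues, and the values do not show which allele was expressed in these cells. The difference between alleles was not tested.

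After knockdown, Commd1, a copper and NF-kB regulator, fell most, from 1747 ± 168 to 783 ± 91.5 normalized counts (-1.16 ± 0.09, limma adjusted p = 1.7e-08). Tssc4, a splicing factor gene of the Kcnq1 domain, fell from 1971 ± 54.3 to 1329 ± 119 (-0.57 ± 0.07, limma adjusted p = 4.5e-06). Nnat, a small paternally expressed membrane protein of brain, fell from 1612 ± 181 to 1192 ± 58.8 (-0.43 ± 0.08, limma adjusted p = 0.00046). Sgce, a sarcoglycan tied to myoclonus dystonia, rose from 746 ± 58.4 to 1049.5 ± 64.4 (0.49 ± 0.08, limma adjusted p = 0.00013). Peg13, a noncoding RNA within Trappc9, rose from 158 ± 42.8 to 228 ± 39.4 (0.55 ± 0.17, limma adjusted p = 0.021), a call lost without ShLuc 5, ShOgt 1 or ShOgt 5. For each of these genes, all 5 ShOgt libraries lay on the same side of the ShLuc mean.

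With OSMI-1, Nnat fell from 1244 ± 101.4 to 558 ± 41.0 (-1.15 ± 0.08, limma adjusted p = 1.0e-10), beside -1.23 for Mest. Sgce fell from 359.5 ± 39.5 to 266 ± 33.6 (-0.43 ± 0.10, limma adjusted p = 0.0035). The 5 risers with the smallest p were Kcnq1ot1, Nap1l5, Ppp1r9a, Cd81 and Blcap. Kcnq1ot1, the long noncoding RNA that silences its domain in cis, went from 255 ± 43.2 to 449 ± 100.5 (0.80 ± 0.13, limma adjusted p = 7.4e-05). Cd81, a tetraspanin in that domain, went from 12428 ± 1210.4 to 16272 ± 1159 (0.39 ± 0.07, limma adjusted p = 0.00028). The others had log2 fold changes of 0.62 ± 0.11, 0.78 ± 0.13 and 0.42 ± 0.08, with limma adjusted p of 0.00011, 0.00015 and 0.00032. All 5 risers were above the vehicle mean in 5 of 5 OSMI-1 libraries. Blcap and Nnat overlap, since Nnat lies inside an intron of Blcap on the other strand, and the 2 went opposite ways.

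Between the experiments, 2 of the 28 tested in both fell in both, Peg12 and Nnat, and none rose in both. Sgce and Tssc4 went opposite ways. The matching shares over all genes were not counted, so nothing is read from these counts. The fold changes of 11 of the 28 differed between the experiments (normal test on the 2 limma estimates, adjusted over 11269 genes), a share to be read beside 26.5% of all genes. The largest of these 11 differences were 1.25 ± 0.14 for Commd1, -0.98 ± 0.32 for Mkrn3 and -0.93 ± 0.13 for Sgce, inhibitor minus knockdown.

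**Figure D5:**
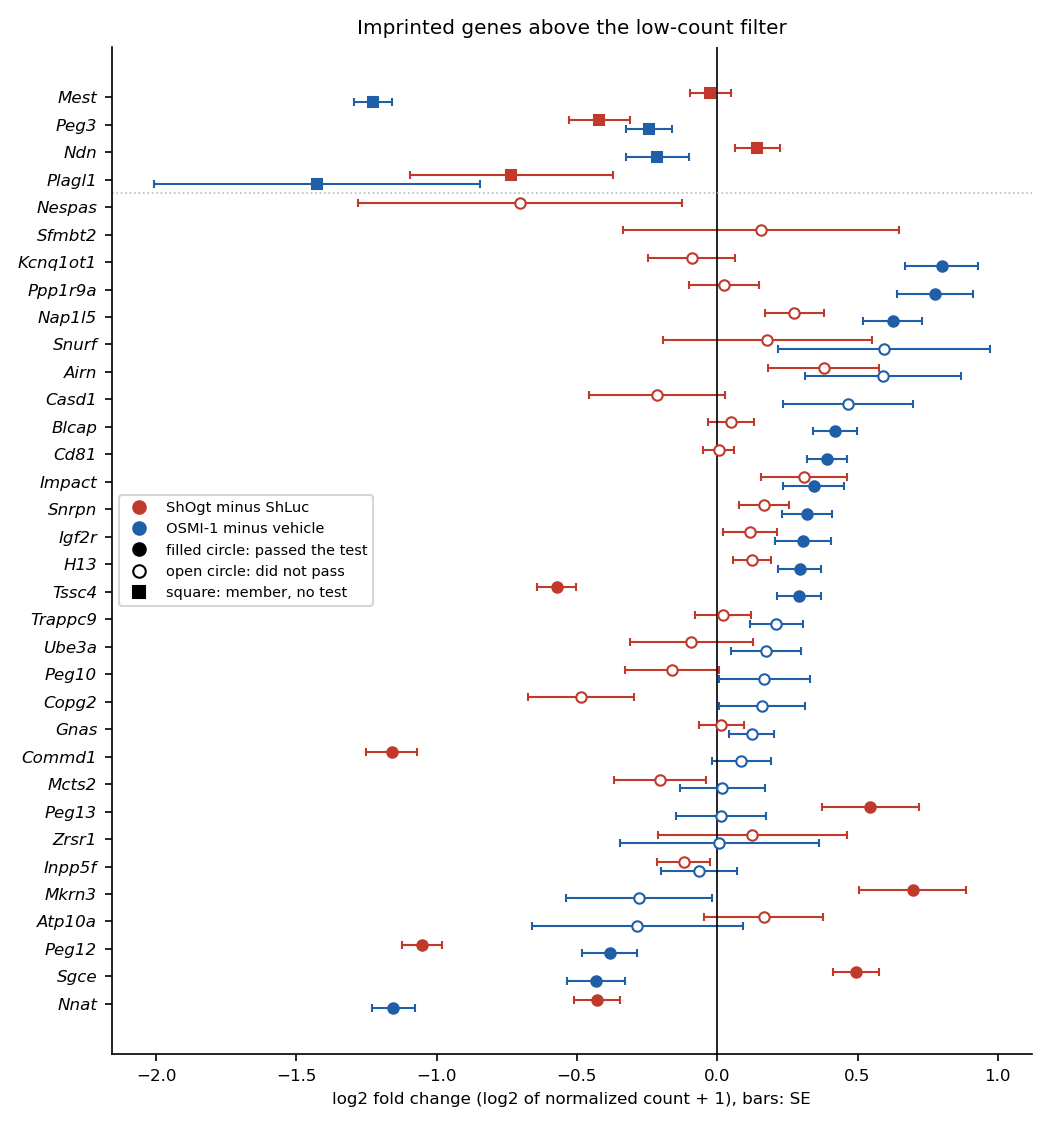
Log2 fold change with SE of every imprinted gene above the filter, knockdown in red and inhibitor in blue. Squares are the 4 members, given without a test, and circles the other imprinted genes, filled where the test passed; Mest lies at -1.23 with OSMI-1 and at -0.02 after knockdown.

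Of 11 factors that keep imprints, 9 passed the filter in the knockdown, where 1 rose and 3 fell. Over all genes tested there, 15.4% rose and 16.4% fell. The list was drawn up with earlier results of these data known. Uhrf1, which recruits DNMT1 to newly copied DNA, fell from 2528 ± 224 to 1112 ± 159 normalized counts (-1.19 ± 0.09, limma adjusted p = 1.3e-08). Dnmt1 fell from 2359 ± 220.4 to 1269.5 ± 199 (-0.90 ± 0.10, limma adjusted p = 1.0e-06). Zfp57, the KRAB zinc finger that reads methylated imprints, rose from 19.03 ± 7.99 to 55.6 ± 6.03 (1.64 ± 0.36, limma adjusted p = 0.0016). With OSMI-1, 8 passed the filter, 2 rose and 4 fell, beside 11.6% and 13.2% of all genes. Uhrf1 fell from 936 ± 123 to 424 ± 50.8 (-1.14 ± 0.10, limma adjusted p = 1.2e-08) and Dnmt1 from 833 ± 58.6 to 601 ± 39.1 (-0.47 ± 0.08, limma adjusted p = 6.7e-05), while the de novo methyltransferase Dnmt3a rose from 787 ± 53.0 to 1042 ± 54.4 (0.40 ± 0.07, limma adjusted p = 0.00021). Uhrf1 and Dnmt1 are also genes of dividing cells, and the part of cell division in these values was not tested.

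Across the 22 libraries, with each group centred on its own mean, the members did not track each other closely. The highest Pearson r among the 6 pairs of members above the filter was 0.35, for Mest and Ndn, and the lowest -0.10, for Mest and Peg3. The genes most like each member among 11269 were Cptp (r = 0.74) and Rpn2 (0.71) for Mest, Dido1 (0.81) and Rab33b (0.79) for Peg3, Gstt3 (0.82) and Tgfa (0.80) for Ndn, and Tmem63a and Zbtb45 (both 0.81) for Plagl1. These are the tops of many correlations over libraries that share depth and culture, and they stand as a description.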

How the data were processed

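Bulk RNA sequencing of 22 libraries in 4 groups was analysed from 2 deposited tables. Per the submitters' processing notes, the authors used STAR, RSEM and DESeq2, with no versions, and named build hg38, although the gene symbols are mouse. The sources differ on the library kit. The deposited signal values are gene counts divided by 1 DESeq2 size factor per library, within each table. Dividing by the smallest step gave whole reads (tolerance 0.001) for 100% of values. The deposited log2 fold changes, p-values and Wald scores of the authors were not used for results.

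Members and lists were chosen with earlier results of these data known. Values were tested as log2(normalized count + 1) with limma 3.58.1 (R 4.3.3, intensity trend, two-sided), 1 table at a time, on genes kept by filterByExpr (minimum count 10, minimum total 15). P-values were adjusted by Benjamini-Hochberg over all genes and called at 0.05. For low genes, fold changes on this scale can depart from the ratio of means in either direction. Counts of any 2 libraries differed with a chi-square of at least 3.72 per degree of freedom, so no library was taken as a duplicate. The fit was tested on simulated data. Named genes were the members, Ogt, measured neighbours, Cdkn1c, Igf2r, the 5 called imprinted genes with smallest adjusted p per direction and experiment, and the 3 called of each other list. Alternatives were other pseudocounts (0.5 and 5), no filter, TMM scaling, edgeR 4.0.16, DESeq2 1.42.0, a replicate block and leaving out libraries. Gene models were GENCODE M21, and sequences came from RefSeq. Counting intervals are exact at 95%.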

Additional observations from a re-analysis of the deposited data

Results flagged for a closer look

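Within groups, 16 of 141 sets of 4 to 10 libraries with any spread had 1 library far from the others, and chance alone flags about 1 in 20 such sets. That rate does not hold for sparse counts, since as little as 1 read drew a flag where all other libraries were at 0. No excess over chance is read from the 16. Among the members, Peg3 was low in ShLuc 1 at 868 normalized counts. In ShLuc 3, Igf2 was high at 1.58, H19 at 0.788 and Meg3 at 14.2, and Meg3 was high in ShOgt 3 at 12.7. Dlk1 was high in Vehicle_OSMI 3 at 1.09 and in 12p5uM_OSMI 4 at 2.58, and Igf2 in Vehicle_OSMI 1 at 4.08. Most of these sparse values are 1 to 4 reads.

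Among the other genes, ShOgt 3 had Tssc4 high at 1536 and Blcap low at 1057. Vehicle_OSMI 6 had Peg12 high at 1057 and Igf1r low at 259. Vehicle_OSMI 2 had Ppp1r9a high at 319 and Dnmt3a low at 681. Nap1l5 was low in 12p5uM_OSMI 4 at 388, and Uhrf1 was low in 12p5uM_OSMI 5 at 336.

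The log2 fold change differed between the experiments for 11 other imprinted genes, by a normal test on the 2 limma estimates. Inhibitor minus knockdown, the difference was 1.25 for Commd1, 0.89 for Kcnq1ot1, 0.86 for Tssc4, 0.75 for Ppp1r9a, 0.67 for Peg12, 0.64 for Copg2, 0.39 for Cd81 and 0.37 for Blcap. It was -0.98 for Mkrn3, -0.93 for Sgce and -0.73 for Nnat.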

How the results depend on the processing

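No named fold change that passed the test turned direction under the settings tried. Of the members' fold changes, that of Mest in the knockdown, near 0, ran from -0.07 to 0.01 with 1 library left out and was above 0 without ShOgt 6. Without a filter on low counts, 2 members were past the threshold in the knockdown, Igf2 as higher beside Peg3. With OSMI-1 that setting gave 3, with Meg3 as lower beside Mest and Peg3. Without the libraries that stood apart, 11 other imprinted genes passed in the knockdown (7 higher, 4 lower), with H13, Impact, Nap1l5 and Snrpn added. In that setting 1 member passed with OSMI-1, Mest alone. Leaving out 1 library at a time, the members past the threshold with OSMI-1 numbered 1 to 3 and stayed at 1 in the knockdown, and all genes called ranged from 3209 to 3893 in the knockdown and 2427 to 2671 with OSMI-1. Plagl1 was past the threshold as lower with OSMI-1 without Vehicle_OSMI 3 or 12p5uM_OSMI 1, and with the replicate block. Whether replicate numbers pair the libraries was not settled. Same-numbered libraries correlated at -0.01 to 0.16 in the knockdown and -0.10 to 0.05 with OSMI-1. ShLuc 3, ShLuc 6 and Vehicle_OSMI 6 were most like the treated library of their own number, and the other control libraries compared were not. Low correlations cannot exclude pairing. With the replicate block, 1 member passed in the knockdown and 3 with OSMI-1, 8 and 11 other imprinted genes passed, Copg2 passed in the knockdown (limma adjusted p = 0.0241) and Snrpn was lost with OSMI-1 (0.056). Copg2 and Nap1l5 also passed in the knockdown with edgeR (adjusted p = 0.0353 and 0.0497) and DESeq2 (0.0258 and 0.0323), and Igf2bp2 was lost with OSMI-1 without the filter (limma adjusted p = 0.079). Depth limits Igf2, H19, Dlk1, Grb10 and Meg3, for which 3 reads in a group are 0.0448 to 0.0976 CPM.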
